A study of Mus musculus with 8 samples.

Results

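The autophagy machinery of the newborn mouse liver was described through 37 genes that carry autophagy from its start to the lysosome, out of 34699 gene names with usable spots on the array. The members were taken by name: 36 stood in the array files under their present symbols, and Atg101 stood there as 9430023L20Rik. Each gene was read from its probe with the highest mean signal. Single-colour arrays were made from 4 knockout and 4 wild-type livers of C57BL/6J pups. Knockout pups lacked the miR-379/miR-410 cluster of microRNA genes on the chromosome that came from their mother, and wild-type pups were their littermates, so the comparison asks what the absence of the cluster does to liver transcripts. Birth was by caesarean at E19.5, the pups were kept warm and were killed 4 h later, and a piece of the large liver lobe was taken from each. Both groups therefore share the caesarean delivery and the hours after it, and no liver from before birth was among them.

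Autophagy is the process by which a cell encloses part of its own contents in a double membrane, the autophagosome, and delivers it to the lysosome for breakdown. The ULK1 kinase complex starts it when nutrients run short, a class III PI3-kinase complex marks the membrane with a lipid, and ubiquitin-like conjugation joins proteins of the Atg8 family to the growing membrane. In newborn mice the placental supply of nutrients stops at birth and autophagy is known to rise in many tissues before milk is taken, and in the liver it also serves to break down glycogen. Much of its control acts on proteins, by phosphorylation, lipid attachment and breakdown, which a measurement of transcripts does not read.

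The labels do not state where the deletion starts and ends, so microRNAs were counted from the Mir379 hairpin to the Mir410 hairpin. In the RefSeq annotation of GRCm38.p6, that interval holds 35 hairpin entries between positions 109709060 and 109743795 of chromosome 12. It also holds 69 mature microRNA names with 63 different seeds. These names belong to more microRNA genes than there are hairpin entries, so 35 understates the number of microRNA genes. The seed, bases 2 to 8 from the 5′ end, is the stretch through which a microRNA mainly recognises a transcript. The sequences below are the microRNAs at the ends of the cluster and the 2 members of the miR-376 family that are described next, with the seed in capitals. In human cells miR-376b has been reported to target ATG4C and BECN1.
mmu-miR-379-5p: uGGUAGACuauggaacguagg
mmu-miR-376b-3p: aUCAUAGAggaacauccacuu
mmu-miR-376a-3p: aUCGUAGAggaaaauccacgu
mmu-miR-410-3p: aAUAUAACacagauggccugu
The mature strands of miR-376b and miR-376a lie at chr12:109723508-109723528 and chr12:109723824-109723844 on the plus strand of GRCm38.p6. Over their first 8 bases, counted from the 5′ end, they differ by A4G (miR-376b base first), so their seeds are different. Sites for these seeds in mouse transcripts were not searched, because transcript sequences were not used here.

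Levels are log2 signals relative to the 75th percentile of their array, differences are knockout minus wild-type on that log2 scale, and limma tested the 23538 genes with a probe clearly above background on 4 or more of the 8 arrays. The share of spots above background ran from 58.6% to 66.2%, no spot was saturated, and the number of arrays limits the precision. Mirg, a noncoding RNA of the same chromosomal domain, checks the genotype: it stood at -0.19, -0.31, -0.90 and -0.72 on the knockout arrays, against 2.12, 2.25, 2.16 and 2.15 on the wild-type arrays. Knockout arrays filled 1 column of the slide and wild-type arrays the other, so genotype and slide column cannot be told apart. In both groups it was not shown that replicate 4 is an independent sample. Knockout 4 lay near a weighted sum of its group (weight 0.60 for knockout 3 and 0.25 for knockout 2), and wild-type 4 near another (0.58 for wild-type 3 and 0.35 for wild-type 2). With each array fitted in this way, the residual SD was 0.20 for knockout 4, against 0.25 to 0.31 for the other knockout arrays. It was 0.26 for wild-type 4, little below wild-type 3 (0.28), and 0.31 and 0.41 for wild-type 2 and 1. Counts and the values of the leading members are therefore also given without both replicate 4 arrays. Xist, the transcript of the inactive X chromosome, was detected above background on 3 knockout arrays and 0 wild-type arrays, and the Y-linked Ddx3y on 2 knockout arrays and 3 wild-type arrays, so sex was not balanced between the groups. Knockout 4 showed both (Xist at -0.13, against 1.73 and 1.52 in knockout 1 and 2, and Ddx3y at 1.82, against 2.31 in knockout 3), and wild-type 3 showed neither. Wild-type 3 and 4 also stood apart in pancreatic acinar markers (6 of 8 measured), whose means relative to the wild-type mean were -2.50, -2.58, -2.66 and -2.61 in knockout livers, against -1.15, -2.95, 2.57 and 1.53 in wild-type livers. Of the hepatocyte markers listed, 7 of 8 were measured, with Alb and Ttr among them, and 0 were called.

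None of the 36 members that could be tested changed at an adjusted p under 0.05: 0 rose and 0 fell by limma, where 0.217% of all genes were called (0.0382% higher and 0.178% lower). Before adjustment, 3 members had a p under 0.05 (8.33%, against 13.4% of all genes), and all 3 were higher in knockout: Atg12, Uvrag and Gabarap. These 3 were also the members whose groups did not overlap, with 3 of 36 higher and 0 lower, against 9.13% of all genes (4.76% higher and 4.37% lower). Without both replicate 4 arrays 0 members were called, where 0.0212% of all genes were, and 1 member, Atg12, had an unadjusted p under 0.05, against 7.31% of all genes. Without wild-type 3 and 4, the arrays high in pancreatic markers, 0 members were called, where 2 of all 23538 genes were called higher and 11 lower. In that setting 3 members had an unadjusted limma p under 0.05, against 13.7% of all genes. The differences of Atg12, Uvrag and Gabarap were then 0.37, 0.21 and 0.23. In a piece of whole liver, fewer cells of a type and less RNA per cell cannot be told apart, so these values describe the tissue.

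The member differences were small and lay on both sides of 0. Knockout means were higher for 18 members and lower for 18, and the median difference was -0.00057, beside 0.028 over all genes, of which 56.6% had a higher knockout mean. The lowest difference was -0.19 (Pik3c3) and the highest 0.39 (Atg12). The intervals say how large a change could have been missed: 34 of 36 members had a 95% interval within 0.5 log2 of 0 on either side and all 36 within 1 log2. The median interval reached 0.21 to either side of a member's difference, against 0.26 over all genes. Only Atg12 and Atg14 had intervals that reached past 0.5, and both did so on the upper side.

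**Figure D1:**
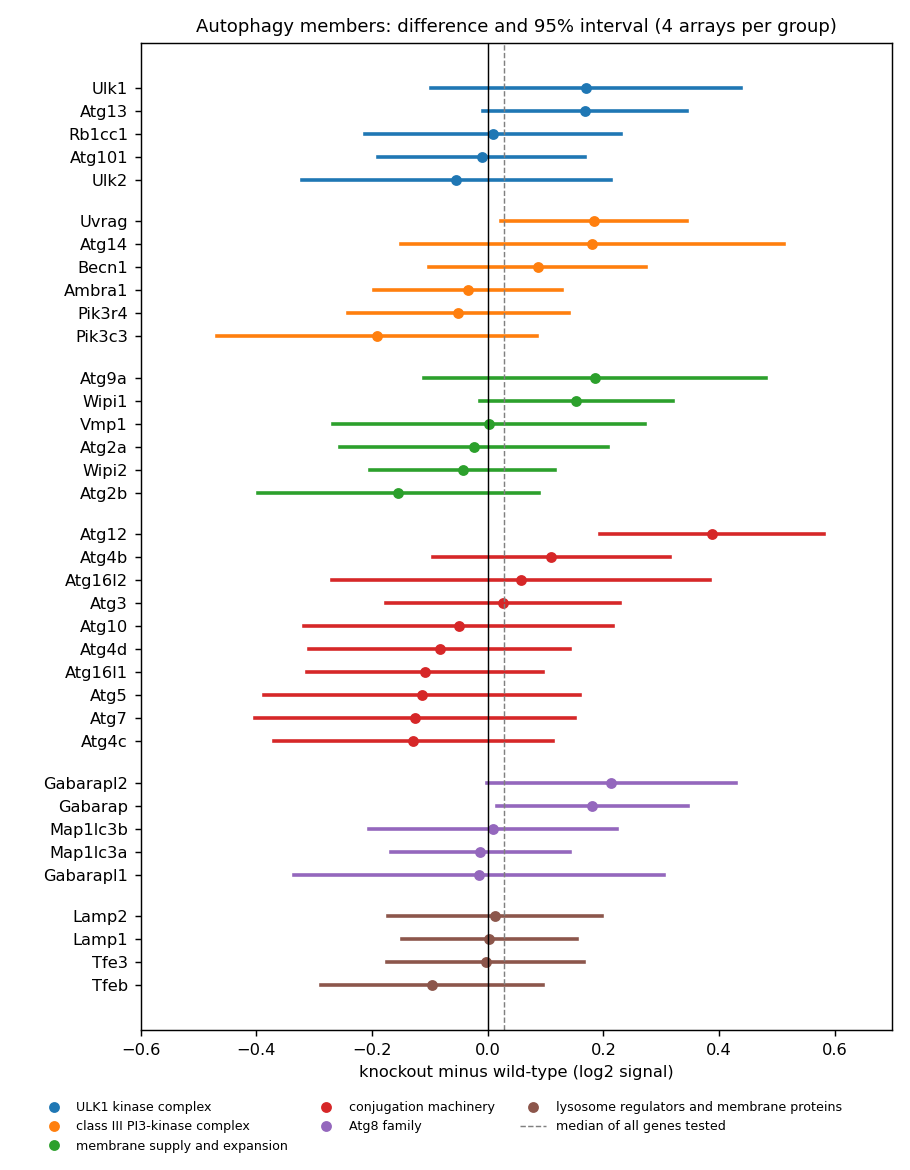
Each point is a member's difference, knockout minus wild-type in log2 signal, with its 95% limma interval as a line (4 arrays per group), coloured by role, and the dashed line is the median of all genes tested (0.028). Most intervals cross 0, Atg12 sits farthest to the right at 0.39, and the 6 role groups each hold members on both sides of 0.

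**Figure D2:**
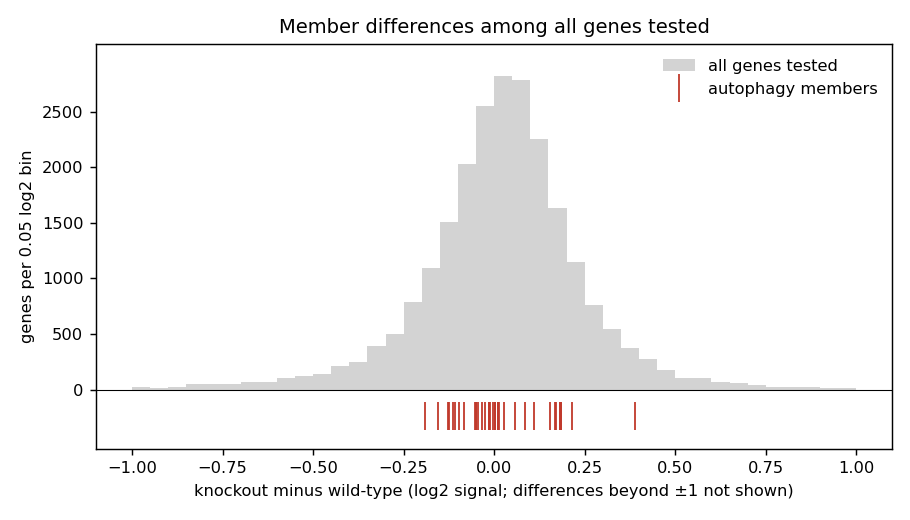
Grey bars count all 23538 tested genes by knockout minus wild-type difference in log2 signal, with differences beyond 1 on either side not drawn, and red ticks mark the 36 tested members. The members lie between -0.19 and 0.39, within the bulk of all genes.

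The ULK1 kinase complex starts autophagosome formation. Of its 5 members, 3 had higher and 2 lower knockout means, the median difference was 0.010, and none passed the test. Ulk1, its nutrient-sensing kinase, stood at 5.58, 5.44, 5.73 and 5.66 in knockout livers, against 5.15, 5.65, 5.45 and 5.47 in wild-type livers. The groups overlapped, with wild-type 1 the lowest array and wild-type 2 above all but 2 knockout arrays. The difference was 0.17 (SE 0.12, 95% interval -0.098 to 0.44, limma adjusted p = 0.545), and without wild-type 1 it was 0.075. Atg13, the adaptor that ties the kinase to its partners, stood at 4.16, 4.04, 4.15 and 4.15 in knockout livers, against 3.80, 4.02, 4.05 and 3.95 in wild-type livers. Knockout 2 and wild-type 3 lay so close that the groups overlapped by a small margin, and the difference of 0.17 (SE 0.077) had a limma adjusted p of 0.393. The scaffold Rb1cc1 differed by 0.010, the Atg13 partner Atg101 by -0.010 and the second kinase Ulk2 by -0.054. Other probes of Rb1cc1 and Ulk2 gave 0.18 and 0.048, the last on the other side of 0.

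The class III PI3-kinase complex makes the lipid that recruits later proteins. Of its 6 members, 3 had higher and 3 lower knockout means, with a median of 0.026, and none passed the test. Uvrag, a subunit of the form of the complex that acts on endosomes and on the maturation of autophagosomes, stood at 3.85, 3.98, 3.75 and 3.80 in knockout livers, against 3.63, 3.63, 3.70 and 3.69 in wild-type livers. Every knockout array lay above every wild-type array. The difference was 0.18 (SE 0.071, 95% interval 0.022 to 0.35, a fold of 1.14), with an unadjusted p of 0.0301 and a limma adjusted p of 0.322. Without both replicate 4 arrays it was 0.21 (limma adjusted p = 0.712), and with the level of Xist as a covariate it was 0.073 (limma adjusted p = 0.831). With the level of Ddx3y as a covariate it was 0.16 (limma adjusted p = 0.319). Xist was detected on 3 knockout arrays and 0 wild-type arrays, so this covariate largely overlaps with genotype and cannot separate sex from it. The part of sex in the Uvrag difference was not tested further. Its probe lies at chr7:106035448-106035507 on the minus strand of mm9, per the file headers.

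Pik3c3, the catalytic subunit, had the lowest difference of all members. It stood at 0.19, 0.56, 0.08 and 0.20 in knockout livers, against 0.56, 0.60, 0.31 and 0.33 in wild-type livers. Knockout 2 lay with the high wild-type arrays and the groups overlapped. The difference was -0.19 (SE 0.12, 95% interval -0.47 to 0.086, limma adjusted p = 0.512), and another Pik3c3 probe gave -0.17. Atg14, the subunit that sends the complex to the site of autophagosome formation, differed by 0.18 (SE 0.15). Wild-type 1 stood at 1.53 while the other wild-type arrays ran between 2.02 and 2.18, and the difference was 0.042 without wild-type 1 and 0.27 without both replicate 4 arrays. The regulatory kinase-like subunit Pik3r4 differed by -0.051 and Ambra1, which binds the complex and regulates it, by -0.034.

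Becn1 and Atg4c are the mouse counterparts of the transcripts reported for human miR-376b, and neither passed the test. Becn1, the scaffold of the PI3-kinase complex, stood at 1.63, 1.86, 1.73 and 1.72 in knockout livers, against 1.55, 1.79, 1.60 and 1.65 in wild-type livers. The groups overlapped and the highest array of each was its replicate 2. The difference was 0.086 (SE 0.082, 95% interval -0.10 to 0.27, limma adjusted p = 0.656). A knockout level more than 0.27 log2 above wild-type lies outside that interval, which counts replicate 4 of each group as an independent animal. Becn1 differed by 0.092 without both replicate 4 arrays (limma adjusted p = 0.851). Leaving out 1 array in turn gave 0.044 (without knockout 2) to 0.14 (without wild-type 2). Atg4c, a protease that trims Atg8 proteins, stood at -0.38, -0.56, -0.24 and -0.39 in knockout livers, against -0.11, -0.48, -0.16 and -0.31 in wild-type livers. Its mean was lower in knockout, with overlapping groups and a difference of -0.13 (SE 0.11, 95% interval -0.37 to 0.11, limma adjusted p = 0.608), and another Atg4c probe gave -0.055. With the level of Xist as a covariate, Atg4c differed by 0.059, on the other side of 0, and with that of Ddx3y by -0.12. Xist was detected only on knockout arrays, so it overlaps with genotype, and it moved members in both directions. With it Atg12 (0.58), Ulk1 (0.31) and Pik3c3 (-0.40) lay farther from 0, and Atg2b (-0.058) and Gabarapl2 (0.16) nearer. For Atg4c, leaving out 1 array in turn gave -0.20 (without wild-type 2) to -0.072 (without knockout 2). The Becn1 probe maps between 101151771 and 101152713 of chromosome 11, minus strand, and the Atg4c probe to chr4:98926364-98926423, plus strand, both on mm9.

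Membrane supply and expansion was represented by 6 members, 3 with higher and 3 with lower knockout means, a median of -0.011 and none past the test. Wipi1, which reads the lipid made by the PI3-kinase complex, stood at 1.65, 1.73, 1.66 and 1.59 in knockout livers, against 1.37, 1.59, 1.56 and 1.50 in wild-type livers. Knockout 4 and wild-type 2 overlapped, and the difference of 0.15 (SE 0.073) had a limma adjusted p of 0.407. The other Wipi1 probes differed by 0.089 and 0.23, so all 3 had a higher knockout mean. Atg2b, a lipid transfer protein that feeds the growing membrane, stood at -1.26, -1.29, -1.16 and -1.28 in knockout livers, against -0.81, -1.08, -1.26 and -1.23 in wild-type livers. Wild-type 1 was the highest array, wild-type 3 and 4 lay within the knockout range, and the difference was -0.15 (SE 0.11, limma adjusted p = 0.543), or -0.059 without wild-type 1. Atg9a, the lipid scramblase carried by vesicles to the new membrane, differed by 0.19 (SE 0.13), with wild-type 1 at 0.72 and the other wild-type arrays between 1.12 and 1.36, and by 0.059 without wild-type 1. Atg2a differed by -0.024, Wipi2 by -0.043 and Vmp1, a membrane protein of the endoplasmic reticulum, by 0.0023.

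The conjugation machinery attaches Atg12 to Atg5 and Atg8 proteins to lipid. Of its 11 members 10 could be tested, 4 with higher and 6 with lower knockout means, a median of -0.066 and none past the test. Atg4a was not well above background on any of the 8 arrays and has no comparison. Atg12, the ubiquitin-like protein that is joined to Atg5, stood at 2.95, 3.00, 3.22 and 2.99 in knockout livers, against 2.59, 2.75, 2.71 and 2.56 in wild-type livers. Every knockout array lay above every wild-type array. The difference was 0.39 (SE 0.085, 95% interval 0.19 to 0.58, a fold of 1.31), the smallest unadjusted p of any member (0.00156) and a limma adjusted p of 0.123. Without both replicate 4 arrays it was 0.38 (limma adjusted p = 0.581).

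The Atg12 difference depended on the probe. The probe used lies at chr18:46892253-46892312 on the minus strand of mm9, and a dimmer probe of the same gene at chr18:46894075-46894134 gave 0.20 (SE 0.12, unadjusted p = 0.128 by limma). Only the dimmer probe is in the authors' deposited value table, where the difference was 0.19 (limma adjusted p = 0.458). Over all alternatives the Atg12 difference stayed above 0, between 0.19 and 0.58, and its limma adjusted p ran between 0.0546 and 0.581, so it passed the threshold under none of them.

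The partners of Atg12 listed here (Atg7, Atg10, Atg5 and Atg16l1) had lower knockout means, and Atg3 had a higher one. Atg7, the activating enzyme of both conjugations, differed by -0.13, and Atg10, which passes Atg12 on to Atg5, by -0.050. Atg5, the acceptor of Atg12, differed by -0.11 (SE 0.12), and Atg16l1, which binds the finished conjugate and places it on the membrane, by -0.11 (SE 0.089). Without both replicate 4 arrays Atg7 differed by -0.051, Atg10 by -0.16 and Atg5 by -0.20, and without wild-type 1 Atg5 differed by -0.016 and Atg10 by 0.040, on the other side of 0. Atg3, which passes Atg8 proteins on to lipid, differed by 0.027. None of these 5 had an unadjusted p under 0.05, and their limma adjusted p-values ran from 0.606 (Atg16l1) to 0.909 (Atg3). Atg16l2, a relative of Atg16l1, differed by 0.057 with the widest knockout spread of the role (0.80, 0.81, 1.36 and 1.14 in knockout livers, against 0.73, 1.06, 1.03 and 1.05 in wild-type livers).

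The proteases of the Atg4 family prime Atg8 proteins and later release them from the membrane. Atg4b stood at 0.55, 0.48, 0.56 and 0.51 in knockout livers, against 0.20, 0.47, 0.58 and 0.41 in wild-type livers. Wild-type 1 was the lowest array and wild-type 3 the highest, so the groups overlapped, and the difference was 0.11 (SE 0.090, limma adjusted p = 0.603), or 0.038 without wild-type 1. Atg4d differed by -0.083 (SE 0.099), with all knockout arrays between 4.88 and 4.93 and wild-type arrays between 4.80 and 5.23.

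**Figure D3:**
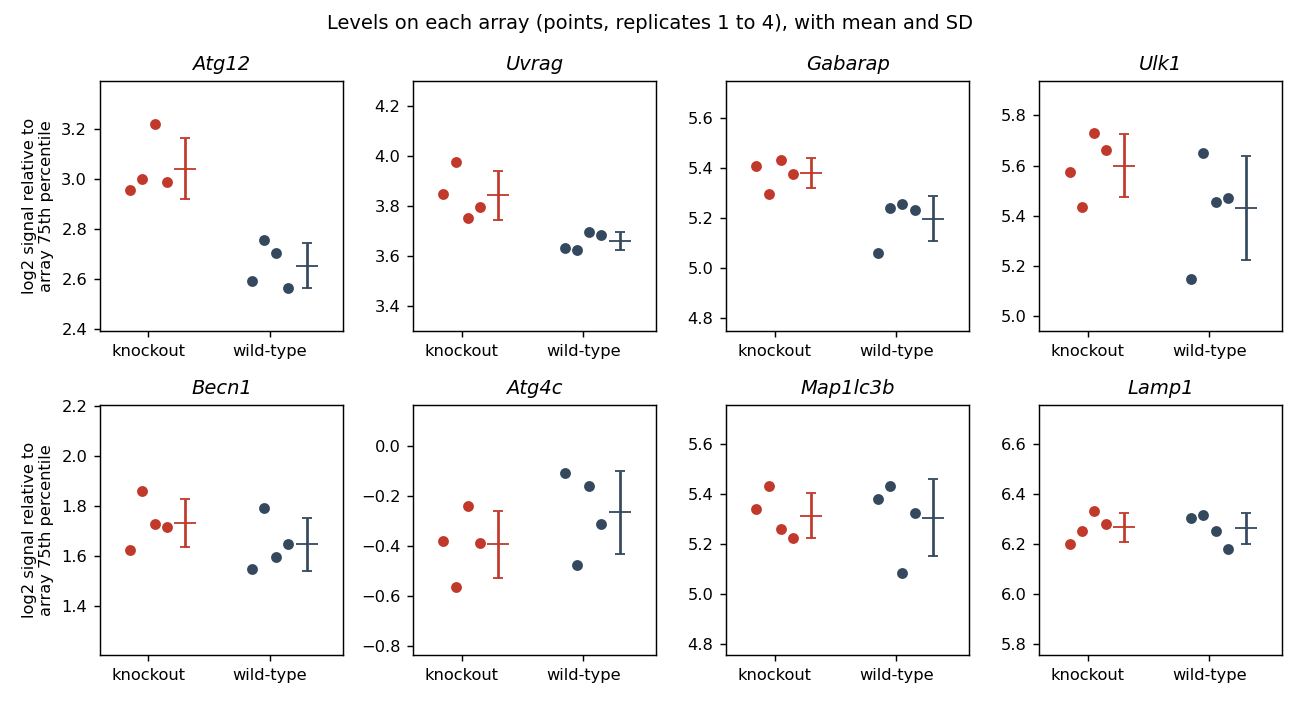
Points are the levels of 8 members on each array (log2 signal relative to the array's 75th percentile, replicates 1 to 4 from left to right in each group), and the bars are the mean and SD of 4 arrays, with knockout in red and wild-type in dark blue. The groups do not overlap for Atg12, Uvrag and Gabarap and overlap for Ulk1, Becn1, Atg4c, Map1lc3b and Lamp1, and all panels span the same height of 1 log2.

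The Atg8 family coats the autophagosome and binds cargo receptors. Of its 5 members 3 had higher and 2 lower knockout means, with a median of 0.0095, and none passed the test. Gabarap stood at 5.41, 5.29, 5.43 and 5.38 in knockout livers, against 5.06, 5.24, 5.25 and 5.23 in wild-type livers. Every knockout array lay above every wild-type array, though knockout 2 and wild-type 3 lay close together. The difference was 0.18 (SE 0.072, 95% interval 0.016 to 0.35, a fold of 1.13), with an unadjusted p of 0.0352 and a limma adjusted p of 0.339. Without both replicate 4 arrays it was 0.19 (limma adjusted p = 0.732), and without wild-type 1 it was 0.14 (limma adjusted p = 0.357). The probe lies at chr11:69808343-69808402 on the plus strand of mm9. Another Gabarap probe gave 0.22 and a dim probe gave -0.00080.

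Gabarapl2 stood at 5.09, 5.11, 5.05 and 5.08 in knockout livers, against 4.65, 5.08, 4.82 and 4.92 in wild-type livers. The knockout arrays lay within a narrow band that wild-type 2 reached, and the difference was 0.21 (SE 0.094, 95% interval -0.0014 to 0.43, limma adjusted p = 0.376), or 0.14 without wild-type 1. Gabarapl1 differed by -0.015 with a wide interval (-0.34 to 0.31). Map1lc3b, which encodes the LC3 protein most used to count autophagosomes, stood at 5.34, 5.43, 5.26 and 5.23 in knockout livers, against 5.38, 5.43, 5.08 and 5.33 in wild-type livers. The groups overlapped fully, and the difference was 0.0095 (SE 0.094, 95% interval -0.21 to 0.22, limma adjusted p = 0.970). Its probe was spotted 10 times on each array, and the SD between those spots was 0.033 to 0.070, below the SD between the arrays of a group (0.091 in knockout and 0.15 in wild-type livers). Map1lc3a differed by -0.013.

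Tfeb and Tfe3 are transcription factors that turn on lysosomal and autophagy genes, and Lamp1 and Lamp2 are glycoproteins of the lysosomal membrane. Of these 4, 2 had higher and 2 lower knockout means, with a median of -0.00020 and none past the test. Lamp1 stood at 6.20, 6.25, 6.33 and 6.28 in knockout livers, against 6.30, 6.32, 6.25 and 6.18 in wild-type livers. The groups overlapped fully and the difference was 0.0031 (SE 0.066, 95% interval -0.15 to 0.15, limma adjusted p = 0.986). Lamp2 stood at 4.01, 3.99, 4.15 and 4.02 in knockout livers, against 4.18, 4.06, 3.94 and 3.93 in wild-type livers. Its difference was 0.013 (SE 0.081, 95% interval -0.17 to 0.20, limma adjusted p = 0.955), and the differences of Lamp1, Lamp2 and Map1lc3b were below 0 under quantile or median scaling, so none of these 3 has a direction. Tfeb stood at -1.47, -1.54, -1.60 and -1.76 in knockout livers, against -1.61, -1.48, -1.43 and -1.47 in wild-type livers. Knockout 4 was its lowest array, the groups overlapped, and the difference was -0.097 (SE 0.084, limma adjusted p = 0.627), or -0.030 without both replicate 4 arrays. Tfe3 differed by -0.0035.

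TFEB and TFE3 bind the letters CACGTG, which read the same on both strands. In the 250 bases before the start site (RefSeq, GRCm38.p6) 4 of the 31 members with a promoter entry held them (12.9%), against 6.86% of all 27025 genes with an entry. The longer TCACGTGA, which contains the shorter motif, stood in 1 member (3.23%, against 0.907% of all genes). The 4 members were Atg3, Atg5, Atg7 and Lamp1, with differences of 0.027, -0.11, -0.13 and 0.0031. Since no member was called, a count of calls cannot set these 4 apart from the rest. The promoter of Lamp1 is printed because it held more copies than any other member, 4 in all, in capitals, at chr8:13158911-13159160 on the plus strand.
Lamp1: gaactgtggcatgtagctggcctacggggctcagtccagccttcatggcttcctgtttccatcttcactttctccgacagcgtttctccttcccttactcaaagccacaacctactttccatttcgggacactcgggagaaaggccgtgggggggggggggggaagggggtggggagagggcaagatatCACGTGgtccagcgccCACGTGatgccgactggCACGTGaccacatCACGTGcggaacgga
The match of letters is a description of these windows and does not show binding in these livers.

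Set side by side, initiation (the ULK1 and PI3-kinase complexes) had 6 higher and 5 lower knockout means, conjugation 4 and 6, and lysosome regulators 2 and 2, with 0 called in each. A difference between the roles was not tested.

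Among the wild-type arrays, 1 and 2 were often the extremes. Wild-type 1 was the lowest of its 4 arrays for 20 of 36 members (55.6%), against 36.5% of all genes, and wild-type 2 was the highest for 20 of 36 (55.6%), against 26.8% of all genes. Wild-type 1 was also the highest for 8 of 36, and it lay near the wild-type mean for the conjugation machinery (0.0077) and the lysosome regulators (-0.0028). Relative to the wild-type mean, the Atg8 family averaged 0.060, 0.090, 0.080 and 0.071 on the knockout arrays, against -0.14, 0.15, -0.062 and 0.049 on the wild-type arrays. The erythroid markers listed (8 of 8 measured) moved on the same arrays, with means of 0.32, 0.41, 0.32 and 0.29 in knockout livers, against -0.52, 0.33, 0.021 and 0.17 in wild-type livers. All 8 had a higher knockout mean (56.6% of all genes did), 0 were called (0.217% of all genes were) and wild-type 2 lay within the knockout range. Before adjustment, 1 of them, Epb42, had a limma p under 0.05 (12.5%, against 13.4% of all genes). Epb42 was also the only 1 of the 8 whose groups did not overlap, higher in knockout, against 4.76% of all genes. The newborn liver still makes red cells, and their part in the differences of Gabarap, Gabarapl2, Ulk1 and Atg13 was not tested. Wild-type 1 also stood apart from the other wild-type arrays in endothelial, macrophage and neutrophil markers. Relative to the wild-type mean, these lists averaged 0.31, 0.25 and -0.24 on it. On the other wild-type arrays they ran from -0.11 to -0.090, -0.12 to -0.017 and 0.025 to 0.13. The part of these cell types in the member differences was not tested. Stellate and fibroblast markers averaged -0.24, -0.17, -0.39 and -0.36 in knockout livers, against 0.039, -0.088, 0.075 and -0.026 in wild-type livers, so these groups did not overlap. All 8 of those markers had a lower knockout mean and 0 were called. Before adjustment, 6 had a limma p under 0.05 (75%, against 13.4% of all genes). For 6 the groups did not overlap, all lower in knockout, against 4.37% of all genes. The part of these markers in the member differences was not tested.

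**Figure D4:**
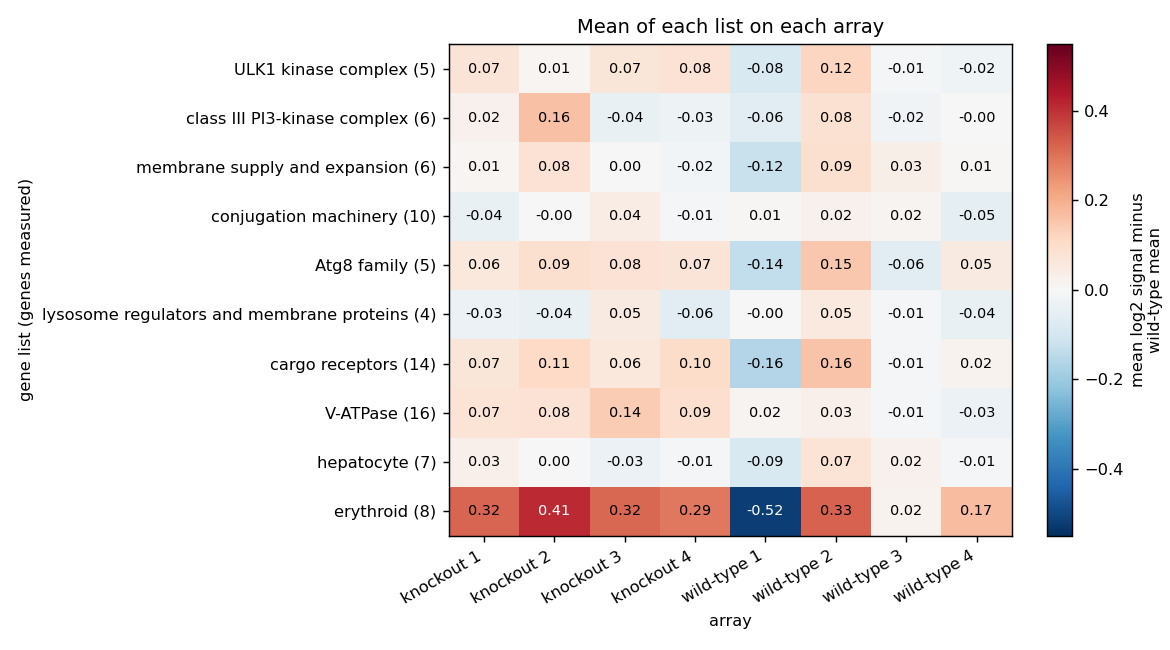
Each cell is the mean log2 signal of a gene list on an array minus its wild-type mean, with the number of measured genes in brackets, knockout arrays on the left and wild-type arrays on the right. Wild-type 1 is low for erythroid markers (-0.52), for cargo receptors (-0.16) and for the Atg8 family (-0.14), while the conjugation machinery stays between -0.049 and 0.040 on all arrays.

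Genes around the core machinery gave the same count. Of 98 listed genes that select cargo, control the start of autophagy, fuse autophagosomes with lysosomes, acidify lysosomes or digest in them, 97 were tested, 0 were called, and 12 had an unadjusted p under 0.05 (12.4%, against 13.4% of all genes). Without both replicate 4 arrays 0 were called, and 2 of 97 had an unadjusted limma p under 0.05, against 7.31% of all genes. Among 14 cargo receptors, 8 had higher and 6 lower knockout means, with a median of 0.082. Stbd1, which ties glycogen to the autophagosome, stood at 4.15, 3.68, 4.60 and 4.33 in knockout livers, against 3.52, 3.79, 3.99 and 3.78 in wild-type livers. Knockout 2 lay among the wild-type arrays, and the difference was 0.42 (SE 0.19, 95% interval -0.015 to 0.86, limma adjusted p = 0.389). Bnip3, a receptor for mitochondria, differed by 0.46 (SE 0.21, limma adjusted p = 0.399), with wild-type 1 at 6.00 and all other arrays between 6.83 and 7.26. Ncoa4, the receptor for ferritin, differed by 0.23 and Sqstm1, the receptor p62, by 0.18 (SE 0.12), with overlapping groups.

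Upstream of the ULK1 complex, mTORC1 holds autophagy back and AMPK promotes it. In that list 28 of 29 genes were tested, 16 with higher and 12 with lower knockout means, 0 called and a median of 0.030. Prkag1, a regulatory subunit of AMPK, stood at 2.82, 2.83, 3.11 and 3.00 in knockout livers, against 2.69, 2.64, 2.60 and 2.64 in wild-type livers, a difference of 0.30 (SE 0.083, limma adjusted p = 0.195) without overlap. Ddit4, a stress-induced inhibitor of mTORC1, stood at 6.05, 6.50, 6.37 and 6.41 in knockout livers, against 6.74, 6.99, 6.53 and 6.72 in wild-type livers, a difference of -0.42 (SE 0.13, limma adjusted p = 0.228) without overlap. Rheb, the activator of mTORC1, differed by 0.24 (limma adjusted p = 0.279). These are the genes with the smallest unadjusted p of their list and none passed the test. Prkag1 differed by 0.28 and Ddit4 by -0.45 without both replicate 4 arrays (limma adjusted p = 0.679 and 0.656).

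At the lysosomal end, the list of fusion proteins (15 tested) had 6 higher and 9 lower knockout means, a median of -0.012 and 0 called. Its smallest p-values belonged to Vamp8 (0.13), Tecpr1 (-0.18) and Snap29 (0.087), given here as differences. Lysosomal enzymes and membrane proteins (24 tested) had 15 higher and 9 lower means, a median of 0.016 and 0 called. Npc2, which carries cholesterol out of lysosomes, differed by 0.20 (SE 0.065), and the protease Ctsh differed by -0.17 (SE 0.068). Gaa, the enzyme that digests glycogen in lysosomes, stood at 4.77, 4.69, 4.70 and 4.66 in knockout livers, against 4.83, 4.76, 4.80 and 4.63 in wild-type livers, a difference of -0.051 (SE 0.070, limma adjusted p = 0.766). The proton pump of the lysosome, the V-ATPase (16 tested), had 14 higher and 2 lower means, a median of 0.082 beside 0.028 over all genes, and 0 called. Its members with the smallest p-values were Atp6ap2 (0.21), Atp6v1g1 (0.23) and Atp6v1a (0.28), and the limma adjusted p of Atp6ap2 was 0.239.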

How the data were processed

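RNA from 8 livers was labelled with Cy3 and hybridised to 1 Agilent array each, per the labels' protocols. The authors deposited scanner output, made with Agilent Feature Extraction 10.10 according to the submitters' processing notes, with spot intensity on a linear scale and probe positions on mm9 per the file headers. They also deposited a value table in log2 units (27084 probes), in which each column tracked that array's log2 median signal (r from 0.99995 to 0.999994), with medians of 8.84 to 8.86 and no centring of genes. It was used as an alternative.

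The log2 processed signal was set relative to the 75th percentile of non-control probes on its array. Control and outlier spots were left out, spots of 1 probe were averaged, and a probe was kept if well above background on at least 4 arrays. Each gene was read from the kept probe with the highest mean. Gene names were updated by accession (27312 of 55681 probes) or by a synonym that only 1 gene had (553), with a RefSeq table of GRCm38.p6 used for names only. The 8 arrays were fitted with limma 3.58.1 in R 4.3.3 (lmFit, then eBayes), with genotype as the only factor, two-sided tests and Benjamini-Hochberg adjustment over 23538 genes and a threshold of 0.05. The procedure was tested on simulated data with independent arrays, which cannot test whether replicate 4 is independent. The p-values and intervals treat replicate 4 of each group as an independent animal. Otherwise the p-values would be too small and the intervals too narrow.

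Members and lists were chosen with earlier results of these data known. Array values are given for the 2 members of each role with the smallest unadjusted p and for Becn1, Atg4c, Ulk1, Map1lc3b, Tfeb, Lamp1 and Lamp2, and for surrounding lists the 3 genes with the smallest p, Sqstm1, Stbd1 and Gaa are named, except 1 gene that is not reported here. Array values of Atg16l2 were added after its values were seen, and other member values are differences or ranges. Alternatives covered normalization, background correction, filter, probe rule, gene names, variance model, covariates, the replicate number as a block and leaving out arrays.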

Additional observations from a re-analysis of the deposited data

Results flagged for a closer look

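In 86 groups of 4 arrays that were checked, 3 had an array far from the other 3, and chance flags about 1 in 20 groups. Atg13, the adaptor of the ULK1 complex, stood at 4.04 in knockout 2, while the other knockout arrays lay at 4.15 to 4.16. Gabarap, of the Atg8 family, stood at 5.06 in wild-type 1, with the other wild-type arrays at 5.23 to 5.25. Atg16l2, the relative of Atg16l1, stood at 0.73 in wild-type 1, with the other wild-type arrays at 1.03 to 1.06.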

How the results depend on the processing

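Under all 25 alternatives 0 members were called, with a lowest limma adjusted p of 0.0546 (Atg12, normexp with quantile normalization), and 17 of 36 members kept the sign of their difference in each alternative that measured them (34 members in the deposited table). Members with an unadjusted p under 0.05 (3) numbered between 1 and 6, the most with normexp. Counts of calls over all genes (9 higher and 42 lower) moved more: 14 and 66 with quantile normalization, 14 and 119 with normexp, 24 and 120 with both, 21 and 120 in the deposited table, 0 and 19 without a filter, 30 and 121 with a trended robust variance, 3 and 11 with Xist and 14 and 78 with Ddx3y as covariate. They were 0 and 5 without replicate 4 of both groups, 3 and 9 without knockout 3 and 4, and 2 and 11 without wild-type 3 and 4. Leaving out 1 array in turn gave 0 to 23 higher and 14 to 64 lower, the highest of both without wild-type 1. The cause was not tested. The labels number the replicates alike, and same-numbered arrays lay in the same row of the slide. Deviations of same-numbered arrays correlated at -0.114 to 0.0688, which cannot show whether the numbers pair the samples. With the replicate block 2 genes were higher and 17 lower. The number of arrays limits the precision, since the median interval of a member reached 0.21 log2 to either side, and replicate 4 may not be independent.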
